A study of Mus musculus with 2 samples.

Results

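The genes described here are 9 genes of matricellular and related matrix proteins, namely the CCN family members Ccn1, Ccn2, Ccn3, Ccn4 and Ccn5, with Tnc (tenascin C), Postn (periostin), Sparc and Fn1 (fibronectin), out of 12393 genes with a probe set of their own on the array. They were chosen by name, and all 14 probe sets assigned to 1 of these symbols alone were used. Expression was measured on 2 Affymetrix mouse arrays of LM8, a mouse osteosarcoma cell line. One array held RNA of a clone that stably carried the complete cDNA of human PHD4 (hPHD4) in pcDNA3.1, and the other held RNA of a control clone carrying pcDNA3.1 without insert. Both clones were selected with G418, and PHD4 is a prolyl hydroxylase of the endoplasmic reticulum membrane. Each group is 1 clone on 1 array, so an effect of hPHD4 and a difference between any pair of clones cannot be told apart, and no value below has a replicate check, a test or a p-value. The label could not be checked against the introduced gene, since 0 probe sets were assigned to its mouse counterpart P4htm alone.

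Matricellular proteins are secreted into the extracellular matrix, where they change how cells attach, signal and respond to growth factors rather than forming the scaffold themselves. The CCN proteins are cysteine-rich and modular, and they act through integrins and heparan sulfate proteoglycans. Tenascin C and periostin are abundant in developing bone, healing wounds and tumour stroma, Sparc (osteonectin) is a collagen-binding glycoprotein of bone, and fibronectin is assembled by cells into fibrils to which many of the others bind.

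Of the 9 genes, 6 were measured in both clones, 2 exceeded the floor in a single clone, and 1 was under the floor in both. Of all 12393 genes, 7452 were measured. Of 20380 probe sets with 1 symbol, 4.15% exceeded the floor only with hPHD4 and 4.28% only in the control. Another 34.4% were under the floor in both clones. The floor was the 40th percentile of each array, a linear signal of 81.1 with hPHD4 and 67.8 in the control. With hPHD4, Ccn2 was the only measured member higher by 1.5-fold or more, and 0 were lower by that much. The shares among all 7452 measured genes were 8.94% higher and 5.22% lower by 1.5-fold or more. At 2-fold, Ccn2 was again the 1 higher member and 0 were lower, against 1.89% and 0.98% of all measured genes. At a lower threshold, where the brighter clone exceeds the other by 25%, 2 members were higher (Ccn2, Ccn4) and 1 lower (Fn1), against 22.6% and 15.9% of all measured genes. The median log2 ratio of the 6 members, hPHD4 clone over control clone, was −0.10, beside 0.03 for all measured genes, with 3 members above 0 and 3 below. No replicate error exists, so ratios are set beside the SD found between probe sets of a single gene, pooled over genes of like brightness, at 0.40, 0.37 and 0.28 for the dimmest, middle and brightest of 3 equal groups. It is the spread of single probe set ratios, so a gene's mean over several probe sets varies less than it. It leaves out differences between cultures, clones and arrays.

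**Figure D1:**
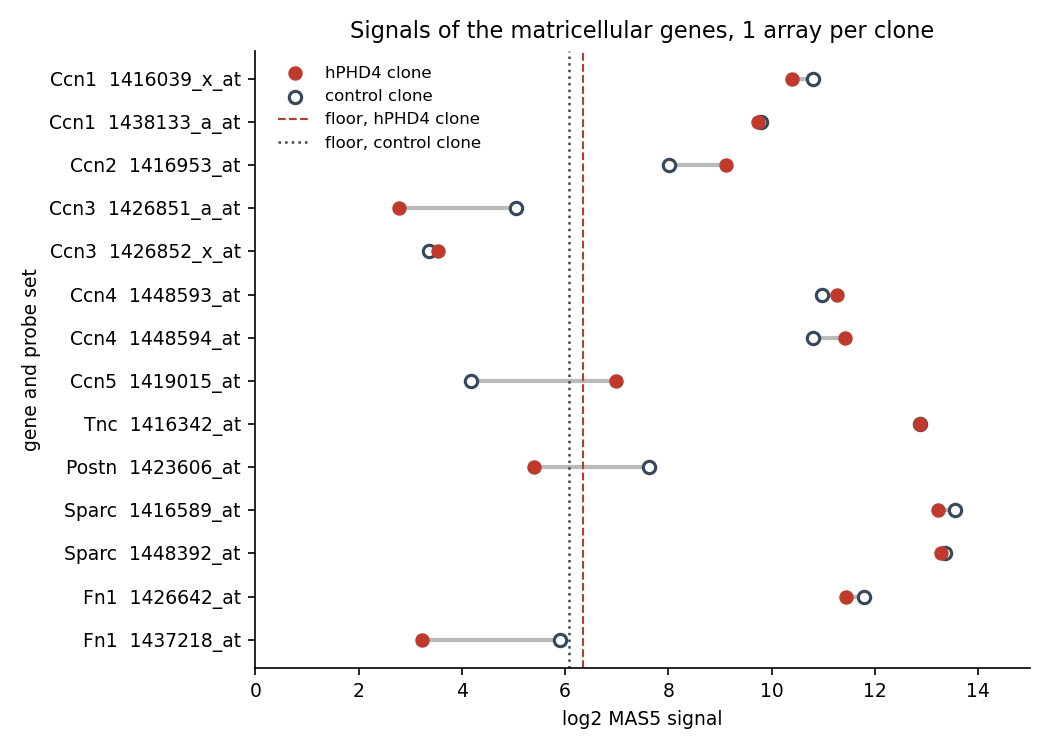
Log2 MAS5 signal (horizontal axis) of each of the 14 probe sets of the 9 genes, 1 row each, in the hPHD4 clone (filled red) and the control clone (open), with the floor of each array as a vertical line. Ccn2 lies farther right for hPHD4, Ccn5 exceeds the floor only with hPHD4 and Postn only in the control, and the probe sets of Sparc, Tnc, Ccn1 and Ccn4 lie well above it in both clones.

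Ccn2, known as connective tissue growth factor, is a secreted adaptor protein induced by TGF-beta and by the coactivators YAP and TAZ. Its only probe set, 1416953_at, had a linear signal of 554 with hPHD4 and 259 in the control, both above the floor. This was a 2.14-fold higher signal, or a log2 ratio of 1.10, beyond the SD of 0.37 for genes of its brightness. Ccn2 ranked number 100 from the top of the 7452 measured genes, and 1.73% of the 2484 genes in its brightness group had a ratio as far from 0 in either direction. The ratio was between 1.06 and 1.10 under all 10 alternatives tried. It rests on 1 probe set.

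Ccn1 (Cyr61) is an immediate early gene that, like Ccn2, responds to YAP and TEAD. On probe set 1416039_x_at its linear signal was 1338 with hPHD4 and 1795 in the control. On 1438133_a_at the signals were 847 and 889. Both probe sets were lower in the hPHD4 clone, by 0.42 and 0.07 on the log2 scale. Their mean log2 ratio of −0.25 was smaller than the SD of 0.28 for bright genes, and 40.7% of genes of that brightness had a ratio as far from 0. The ending _x_at marks probes that can also match other sequences, and neither probe set of Ccn1 has the plain ending. Ccn1 and Ccn2 lay on opposite sides of 0, and of this pair only Ccn2 lay beyond the SD of its brightness group.

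The Ccn1 promoter is shown because TEAD factors, which are known to act on both Ccn1 and Ccn2, have a motif in it. RefSeq promoter sequences (GRCm38.p6) were matched for 4 of the 9 members, Ccn1, Tnc, Postn and Sparc. The Ccn1 window covers the 250 bases before the transcript start at chr3:145649986-145650235, minus strand. Capitals mark, from left to right, a TEAD motif (GGAATG, here on the opposite strand), a cyclic AMP element half-site (TGACG, opposite strand), a hypoxia response element core (ACGTG or GCGTG, opposite strand) and a TATA box (TATAAA).
Ccn1 promoter: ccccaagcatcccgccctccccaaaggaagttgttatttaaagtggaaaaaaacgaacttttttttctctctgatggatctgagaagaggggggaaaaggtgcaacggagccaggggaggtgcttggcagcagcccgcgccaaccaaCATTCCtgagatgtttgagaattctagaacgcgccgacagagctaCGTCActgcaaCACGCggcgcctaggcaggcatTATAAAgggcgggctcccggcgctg
The TEAD motif began 103 bases before the start and the TATA box 25 bases before it. Searched on both strands of the same window, the TEAD motif occurs in 12.6% of 32851 promoters, the half-site in 17.8%, the hypoxia core in 38.6% and the TATA box in 12.4%. Of the other motifs searched, the AP-1 motif (TGANTCA, in 6.75% of promoters), the TCF/LEF motif (CTTTGAA or CTTTGAT, 7.48%) and the CArG box (1.47%) had no match in this window. No 2 of the 4 matches overlap. A match describes the letters and is not evidence of binding.

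Ccn4 (Wisp1) is a known target of Wnt and beta-catenin signalling and promotes osteoblast differentiation. Its probe set 1448593_at had linear signals of 2470.3 with hPHD4 and 2021 in the control. Its other probe set, 1448594_at, had signals of 2736 and 1779. The hPHD4 clone was higher on both, with log2 ratios of 0.29 and 0.62. The mean was 0.46 (1.37-fold, SD 0.23 between the 2 probe sets), which is 1.64 times the SD of 0.28 for bright genes, and 15.8% of genes of that brightness lay as far from 0. Ccn4 lies on chromosome 15, whose measured genes had a median of −0.11. With chromosome medians subtracted its ratio was 0.57, still under 1.5-fold.

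Ccn5 (Wisp2) lacks the carboxy-terminal module of the other CCN proteins and is known as a Wnt-induced gene. Its only probe set, 1419015_at, had a linear signal of 127 in the hPHD4 clone, above the floor of 81.1, and of 18.1 in the control clone, under the floor of 67.8. The log2 signals of 6.99 and 4.18 differ by 2.81, the largest difference among the 14 probe sets, but the lower one is under the floor and the difference is not a measured fold. With both signals raised to 1 common floor, the difference was 0.65. Of the 845 probe sets that exceeded the floor with hPHD4 but not in the control, 88 (10.4%) differed at least as much, and their median difference was 1.21.

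Ccn3 (Nov), which restrains proliferation in several cell types, was dim in both clones. Probe set 1426851_a_at had linear signals of 6.86 with hPHD4 and 33.1 in the control, and 1426852_x_at had 11.6 and 10.3. All 4 values are under the floor, and the differences of −2.27 and 0.17 on the log2 scale do not go the same way. Among 7004 probe sets under the floor in both clones, the differences had an SD of 1.51 around a median of 0.37. No direction is read for Ccn3.

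Periostin, a secreted integrin ligand that links fibronectin, tenascin C and collagen and is made by osteoblasts and tumour stroma, had a signal under the floor in the hPHD4 clone but not in the control. The only Postn probe set, 1423606_at, had a linear signal of 42.1 in the hPHD4 clone, under the floor of 81.1, and of 196 in the control clone, above the floor of 67.8. The log2 signals of 5.40 and 7.62 differ by −2.22. With both raised to the common floor the difference was −1.28, and with a floor of the 20th percentile Postn counted as measured. Of 872 probe sets that exceeded the floor in the control but not with hPHD4, 96 (11.0%) differed at least as far in that direction, and the median was −0.70. In bulk RNA, fewer cells expressing a gene and less RNA per cell cannot be told apart.

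A promoter window of Postn is shown because its signal differed most among the members with a promoter sequence. The RefSeq table gives 2 starts for Postn. The window before the second one lies at chr3:54360857-54361106, plus strand (GRCm38.p6), and capitals mark a TATA box that begins 26 bases before the start.
Postn promoter, second start: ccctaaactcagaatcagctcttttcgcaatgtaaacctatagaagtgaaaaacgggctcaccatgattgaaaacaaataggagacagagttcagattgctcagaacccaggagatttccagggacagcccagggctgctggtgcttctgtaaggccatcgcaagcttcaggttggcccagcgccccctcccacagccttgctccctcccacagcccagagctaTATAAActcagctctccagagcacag
None of the other 6 motifs named above for Ccn1 matched here, and the window before the first Postn start and the Sparc window held 0 matches to any of the 7. Both Tnc windows held a TATA motif alone, which is the same match in overlapping windows, 126 and 205 bases before the respective start.

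Tnc, Sparc and Fn1 were far above the floor in both clones, Fn1 on 1 of its 2 probe sets. Tenascin C is a large oligomeric glycoprotein that weakens the adhesion of cells to fibronectin. Its probe set 1416342_at had linear signals of 7498 with hPHD4 and 7477 in the control. The log2 ratio of 0.0040 was the closest to 0 among the measured members. It was 0.13 after quantile normalization and −0.03 after subtraction of the median ratio.

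Sparc had signals of 9621 with hPHD4 and 11979 in the control on 1416589_at, and of 9959 and 10501 on 1448392_at. The hPHD4 clone was lower on both probe sets, by 0.32 and 0.08 on the log2 scale. The mean log2 ratio of −0.20 (SD 0.17 between probe sets) was within the SD of 0.28 for bright genes, and 49.9% of genes of that brightness were as far from 0.

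Fibronectin, the fibril-forming glycoprotein that cells bind mainly through integrin alpha5 beta1, was read from 1 of its 2 probe sets. On 1426642_at the linear signal of Fn1 was 2797 with hPHD4 and 3516 in the control, a 1.26-fold lower signal with a log2 ratio of −0.33. This was 1.19 times the SD of 0.28, and 28.9% of genes of like brightness were as far from 0. The other probe set, 1437218_at, was under the floor in both clones, at 9.40 and 59.5. No direction is read from it. Measured genes of chromosome 1, where Fn1 lies, had a median of 0.16, and with that median subtracted the ratio was −0.49. With the dim probe set kept at the common floor, the ratio was −0.17.

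**Figure D2:**
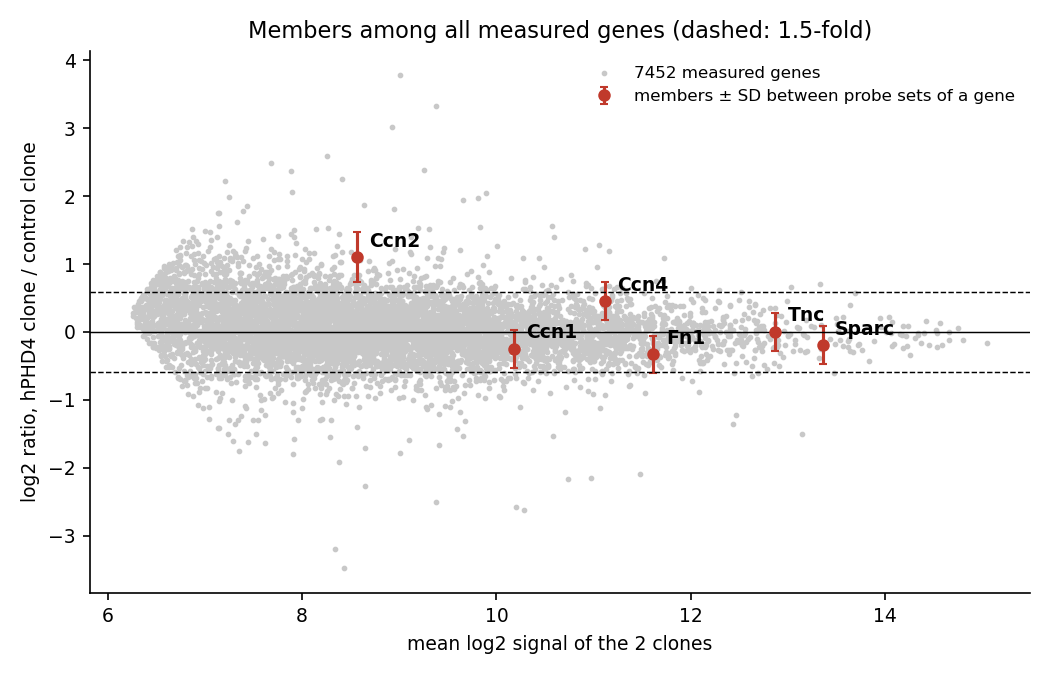
Log2 ratio, hPHD4 clone over control clone (vertical axis), against the mean log2 signal of both clones (horizontal axis) for the 7452 measured genes (grey) and the 6 measured members (red, with the SD between probe sets of a gene of like brightness as error bar). Ccn2 at 1.10 lies above the dashed 1.5-fold line, while Ccn4, Tnc, Sparc, Ccn1 and Fn1 lie between the dashed lines.

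The members with more than 1 measured probe set can be set against other genes of the same kind. The probe sets of Ccn1 differed by 0.35 in log2 ratio, those of Ccn4 by 0.33 and those of Sparc by 0.24. The median difference was 0.30 over 1855 genes with 2 measured probe sets. The disagreement within Ccn1 was reached or passed by 42.6% of those genes, that within Ccn4 by 45.7% and that within Sparc by 58.9%. The spread within these 3 members was thus of the usual size for this pair of arrays.

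Other matricellular genes are given from a list of 24, of which 19 had a probe set of their own and 8 were measured. Of the 8, 4 were at least 1.5-fold lower and 0 were at least 1.5-fold higher, against 5.22% and 8.94% of all measured genes. The median log2 ratio of the list was −0.44. Thbs2 (thrombospondin 2), Mgp (matrix Gla protein) and Fbln5 (fibulin 5) had ratios of −2.57, −2.26 and −1.61. The linear signal of Fbln5 in the hPHD4 clone, 89.9, was near the floor of 81.1. Tgfbi, a TGF-beta-induced adhesion protein of the periostin family, was under the floor in the control clone on all its probe sets and is given as a bound. Its linear signal was 756 with hPHD4 and 30.2 in the control, at least 11.1-fold higher. Postn, the other member of that family, had its higher signal in the control clone. With a floor of the 60th percentile 3 genes of the list remained measured, 1 of them lower, against 4.58% of all genes, and the median was 0.32. With a floor of the 20th percentile 14 were measured, 3 higher and 5 lower, and the median was −0.06. Of all genes at that floor, 16.4% were higher and 6.64% lower. Of 19 genes with dim probe sets at the common floor 1 was higher and 4 lower, against 4.87% and 3.06% of all genes. With chromosome medians subtracted 1 of 8 was higher and 4 lower, against 7.6% and 5.1% of all genes.

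None of the measured receptors of the members passed 1.5-fold. All 20 genes of the receptor list had a probe set, 12 were measured and 0 passed 1.5-fold in either direction, with a median log2 ratio of −0.03. Of all measured genes, 85.8% lay within 1.5-fold, so most genes of any list would. Itgb1 and Itga5, which together form the main fibronectin receptor, had ratios of −0.04 and −0.16, and Itgav and Itgb5, whose integrin binds CCN proteins and periostin, had −0.01 and −0.05. The largest ratios in the list were −0.48 for Cd44, 0.33 for the proteoglycan gene Sdc4, a co-receptor for fibronectin, and 0.30 for Notch1, to which Ccn3 binds. With a floor of the 20th percentile 3 of 14 receptor genes were at least 1.5-fold lower, against 6.64% of all genes. With chromosome medians subtracted 1 of 12 was, against 5.1%. Among 13 measured matrix partners, which are collagens, elastin, a collagen chaperone, a crosslinker and proteases, 3 were at least 1.5-fold higher and 2 lower, with a median of −0.20. The 3 higher were the protease genes Htra1 (2.05) and Ctsk (1.08) and the elastin gene Eln (0.94). Among all measured genes, 8.94% were higher and 5.22% lower. At a floor of the 60th percentile 1 of 10 matrix partners was higher, against 4.71% of all genes. The lower count was 4 with the brightest probe set per gene and 1 of 15 at a floor of the 20th percentile. With the brightest probe set, 9.51% of all genes were higher and 6.25% lower.

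Genes of the YAP and TEAD, TGF-beta and Wnt pathways, known to drive the CCN genes, had ratios above 0 for 10 of 14, 10 of 12 and 9 of 12 measured, against 53.6% of all measured genes. That share over all genes was not matched to the lists for brightness. The HIF list also had 10 of 14 above 0, and the SRF and MRTF list had 8 of 16. Above 0 were 3 of 8 other matricellular genes, 4 of 12 receptors and 4 of 13 matrix partners. Whether any of these pathways bears on the CCN values was not tested. In the YAP and TEAD list, 14 of 24 genes were measured. Of these, 6 were at least 1.5-fold higher and 0 lower, against 8.94% and 5.22% of all measured genes. The list had a median log2 ratio of 0.45, whose size depended on the processing. Loess-corrected signals lowered this median to 0.30 and quantile-normalized ones to 0.31. Floors at the 20th and 60th percentile gave 0.33 and 0.24, where the median of all genes was 0.08 and −0.0037. Leaving out mixed suffixes gave 0.22, and keeping dim probe sets at the common floor 0.03. With the brightest probe set it stayed at 0.45, and no alternative brought it below 0. Ajuba, a LIM-domain regulator of the Hippo pathway, had a ratio of 1.41, the TEAD family gene Tead3 of 0.96 and the receptor tyrosine kinase gene Axl of 0.82. These genes lie in the dimmest of the 3 brightness groups, whose SD was 0.40. Yap1 and Wwtr1, which encode YAP and TAZ, had ratios of −0.04 and −0.03. Ccn1, which belongs to the same targets, was at −0.25. The count of higher YAP and TEAD genes was 1 of 6 measured with a floor of the 60th percentile, against 4.71% of all genes. It was 1 of 9 without probe sets of mixed suffix. When dim probe sets were kept at the common floor it was 3 of 21, with 1 lower, against 4.87% and 3.06% of all genes. A floor of the 20th percentile gave 5 of 17 higher and 2 lower, against 16.4% and 6.64% of all genes there. Without probe sets of mixed suffix, 9.69% of all genes were higher and 5.63% lower.

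In the TGF-beta list, 12 of 17 genes were measured, 3 were at least 1.5-fold higher and 0 lower, with a median of 0.37. The shares among all measured genes were 8.94% and 5.22%. The ligand gene Tgfb2 had a ratio of 1.55, Smad3 of 0.74 and the latency protein gene Ltbp1 of 0.60. In the control clone, Tgfb2 and Smad3 had linear signals of 82.6 and 83.8, near the floor of 67.8. The count of higher TGF-beta genes fell to 1 of 10 at a floor of the 60th percentile, against 4.71% of all genes. It fell to 1 of 9 without probe sets of mixed suffix, against 9.69%. Quantile normalization, loess correction and subtraction of the median ratio each gave 2, against 6.66%, 6.63% and 8.05% of all genes. Dim probe sets kept at the common floor gave 2 of 16, with a median of 0.21. A floor of the 20th percentile gave 5 of 16 higher, with 1 lower, against 16.4% and 6.64% of all genes. In the Wnt and beta-catenin list, 12 of 22 genes were measured and 2 were at least 1.5-fold higher, Axin2 at 1.05 and Notum at 0.79, both feedback inhibitors. Of this list 0 were lower, and the ligand gene Wnt4 was at 0.56. The list median was 0.33. It was 0.17 at a floor of the 60th percentile and with the brightest probe set, 0.21 at the 20th percentile and 0.20 with chromosome medians subtracted. With dim probe sets at the common floor it was 0.00, and otherwise 0.30 to 0.39. The count of higher genes was 0 of 7 at a floor of the 60th percentile, 1 of 8 without mixed suffixes and 1 of 20 with dim probe sets at the common floor. The shares of all genes there were 4.71%, 9.69% and 4.87%.

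The SRF and MRTF list, genes of the actin cytoskeleton and immediate early genes, had 16 of 19 measured, 3 at least 1.5-fold higher and 2 lower, with a median of 0.04. Acta2 (smooth muscle actin) was at −1.50, Egr1 at 0.87 and Fosl1 at −0.68. This median changed sign with other floors, to −0.12 at the 20th and −0.20 at the 60th percentile, where 1 of 14 was higher. It was −0.09 with dim probe sets at the common floor, and without mixed suffixes 1 of 12 was lower. In the HIF list, 14 of 15 were measured, and the median was 0.19. In it 1 gene was at least 1.5-fold higher and 0 lower, against 8.94% and 5.22% of all measured genes. Epas1, which encodes HIF-2 alpha, was at 1.14, Egln2, a HIF prolyl hydroxylase, at 0.57 and Slc2a1, a glucose transporter, at 0.38. The linear signal of Epas1 in the control clone, 72.1 on 1 probe set, was near the floor of 67.8. The count of higher HIF genes was 0 of 12 at a floor of the 60th percentile, 2 of 14 with the brightest probe set per gene, and 2 of 15, with 1 lower, at the 20th percentile. Of all genes, 4.71%, 9.51% and 16.4% were higher under these settings, and 6.64% were lower at the 20th percentile.

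**Figure D3:**
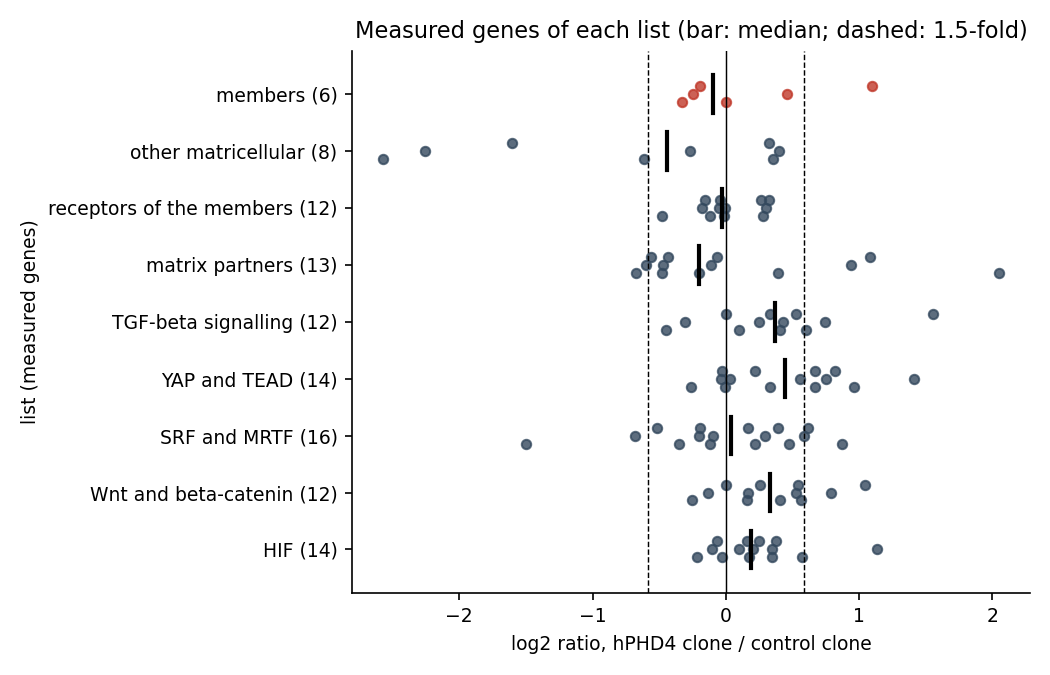
Log2 ratio, hPHD4 clone over control clone (horizontal axis), of every measured gene (points) of the members (red) and of 8 related lists, with the median of each list as a bar and 1.5-fold as dashed lines. The receptors lie between the dashed lines with a median of −0.03, while the YAP and TEAD list has 6 of 14 points above the upper line.

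Cell identity was checked against marker lists. Of 12 osteoblast markers 8 had a probe set of their own and 6 were measured, among them Sp7, Alpl, Col1a1 and Dlx5. Of these markers Ibsp alone was past 1.5-fold, at 1.09. Dlx5, Sp7 and Alpl were at 0.30, 0.23 and 0.21, Col1a1 at −0.11 and Col1a2 at −0.43. The median log2 ratio of the osteoblast list was 0.22, with 4 of 6 markers above 0. The summed linear signal of the osteoblast list was 42344 with hPHD4 and 51295 in the control. This sum weighs bright genes most, such as Col1a2, with mean signals of 12598 and 17021. Measured markers of other cell types were 5 of 10 for macrophages and leukocytes, 2 of 8 for endothelium, 1 of 8 for epithelium, 3 of 8 for cartilage, 1 of 8 for muscle and 0 of 7 for fat. The cartilage marker Col9a1 was the only one of them past 1.5-fold, at 1.16, while Col2a1 was at 0.57 and Sox9 at −0.29. The summed linear signals of these lists in the hPHD4 and control clones were 1045 and 863 for macrophages and leukocytes, 674 and 519 for endothelium, and 3247 and 2105 for cartilage. For epithelium they were 758 and 499.9, for muscle 407 and 525 and for fat 121 and 295, and 0 of these marker probe sets had a value of 0. The part of such markers in the values above was not tested.

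**Figure D4:**
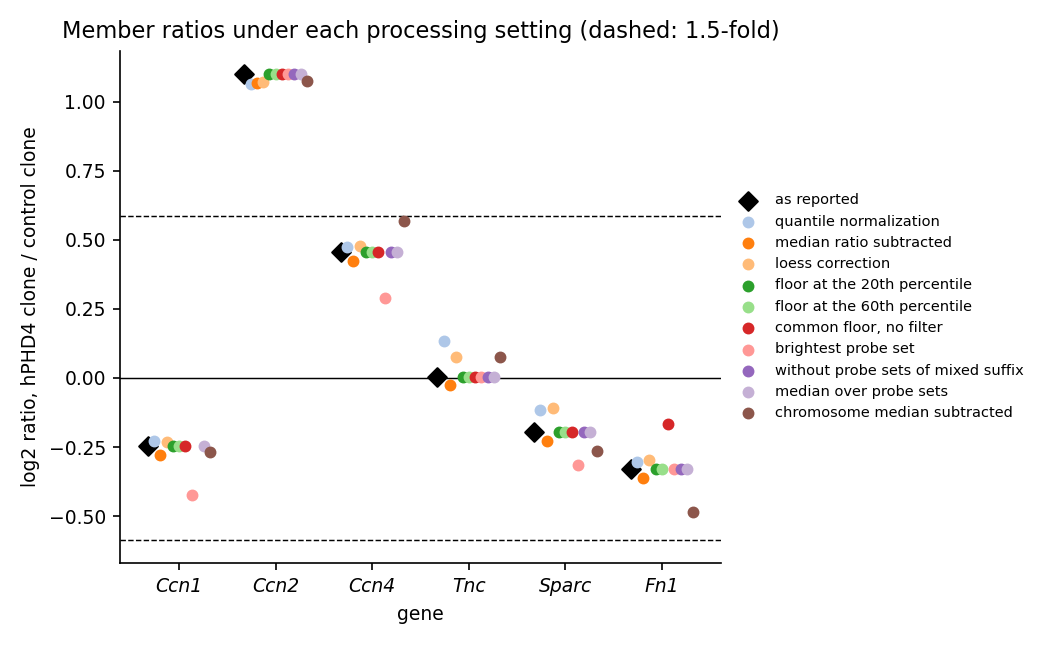
Log2 ratio of the 6 measured members (vertical axis) as reported (black diamonds) and under each of 10 processing alternatives (coloured points), with 1.5-fold as dashed lines. Ccn2 stays between 1.06 and 1.10, Ccn4 between 0.29 and 0.57, and Tnc is the only member whose points lie on both sides of 0.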

How the data were processed

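The authors deposited 1 log2 signal for each probe set and array, computed with MAS5 per the submitters' processing notes. Neither version nor settings of MAS5 are given in the sources. On the linear scale both arrays had a trimmed mean of 500.2, 2% being trimmed at each end, so each array was scaled to 1 target. Detection calls were not used here, and a floor took their place.

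Of 22690 probe sets on an array, 64 were controls; 20380 had 1 gene symbol in the platform annotation, 691 several and 1555 none. The gene numbers of 20351 of these 20380 were in a RefSeq table of GRCm38.p6, which gave names and chromosomes. A probe set counted as measured when above the 40th percentile of its array in both clones, and a gene's value was the mean log2 ratio over its measured probe sets. A bound was given for genes under the floor on 1 array and over the 75th percentile of the other. No member's signal was set against another's, and marker signals were summed within each list. With 1 array per group, the number of arrays limits the precision.

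The named genes were all 9 members with every probe set, from each related list the 3 measured genes of largest absolute ratio, and matricellular genes given as a bound. No gene was named for a similar pattern, since 2 arrays give none. Yap1, Wwtr1, the integrin genes and the osteoblast, macrophage and cartilage markers were named after their values were seen. Members and lists were chosen with earlier results of these data known. Alternatives covered scaling, floor, probe set choice and fold threshold; subtraction of chromosome medians was chosen after seeing the data. Ratio and SD steps were tested on simulated data. Python 3.11.15, pandas 2.3.3 and statsmodels 0.14.6 (loess, span 0.3) were used.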

Additional observations from a re-analysis of the deposited data

How the results depend on the processing

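All 6 measured members kept their side of 1.5-fold under the 10 alternatives, except that Ccn1 has no value without probe sets of mixed suffix (_x_at, _s_at, _a_at, _f_at, _g_at). None of their 59 alternative values moved by more than the SD of its brightness group, and 1, for Tnc, changed sign. The median of the members was 0.0082 after quantile normalization, 0.0040 without mixed suffixes and −0.20 with a floor of the 20th percentile, where Postn entered and 1 member was at least 1.5-fold lower, against 6.64% of all genes there. With signals raised to the common floor, 2 members were higher (Ccn2, Ccn5) and 1 lower (Postn), against 4.87% and 3.06% of all 12393 genes. With 25% as the smallest difference, 2 members were higher and 1 lower. Over all genes, 666 were at least 1.5-fold higher and 389 lower, against 1579 and 638 with a floor of the 20th percentile and 251 and 244 at the 60th. Higher genes made up 63.1% of these, but 50.9% after quantile normalization, 50.8% after loess correction, 71.2% at the 20th and 50.7% at the 60th percentile. Of 160 alternative counts for the related lists, 28 moved by more than 1.5 times or went to or from 0, some of them by 1 gene. Of 80 medians 24 moved by 0.1 or more. The depth of an array is not counted in reads, so limits come from signal over the floor: values of Ccn3, Ccn5 and Postn have at least 1 side under it. Leaving out an array was not possible with 1 per group.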

Other observations

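A measured probe set beside one under the floor, as for Fn1, was common on these arrays. Of 4956 genes with at least 2 probe sets, 1205 (24.3%) had at least 1 probe set measured in both clones and at least 1 under the floor in both.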
